A study of Mus musculus with 8 samples.

Results

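Transcripts of 5 kidney tubule genes (Kap, Acsm2, Slc34a1, Slc27a2 and Umod) and 5 genes of the pigmented layer of the eye (Rgr, Ttr, Dct, Tyrp1 and Rlbp1) were followed through 8 RNA sequencing libraries of mouse tumour cell lines. These 10 genes, out of 55401 gene identifiers in the count table, were selected on their read counts: they had reads in 4 of the libraries and none in the other 4. The presence of reads in those 4 libraries is therefore a description, given without a test, and the question left to the data was whether the kidney genes and the eye genes rose and fell together from library to library or apart. The lines EHE6 (3 libraries), EHE17 (3 libraries) and EHE26 (2 libraries) derive from epithelioid hemangioendothelioma, a vascular tumour with endothelial features. The labels give each library a line and a replicate number and name no genotype, treatment, time or age. Each line is a single line of cells, and nothing in the labels says whether replicates came from separate cultures, so a p-value here measures the spread between these libraries, which may be technical. Polyadenylated RNA was read throughout.

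The proximal tubule of the kidney takes back sugars, phosphate, amino acids and filtered proteins from the urine, and it burns fatty acids to do so. The thick ascending limb, further along the tubule, secretes uromodulin. The retinal pigment epithelium is a sheet of melanin-bearing cells behind the photoreceptors that recycles the vitamin A derivative used in vision. Its melanin is made by the tyrosinase family of enzymes, which pigment cells of the skin and the choroid also use.

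Total counts ran from 44620965 to 96237665 reads per library. The 4 libraries with member reads were replicates 1 and 2 of EHE6 and of EHE17, called EHE6_1, EHE6_2, EHE17_1 and EHE17_2 below; a run of 4 values follows that order. Levels are CPM, the count of a gene scaled to a common library size with TMM factors. The endothelial genes Pecam1, Cdh5, Erg, Kdr and Tek had reads in all 8 libraries and summed to 6031 to 8346 CPM in these 4 and 2355 to 4004 in the others. The others were replicate 3 of EHE6, replicate 3 of EHE17 and the EHE26 libraries. The 4 held more genes with at least 1 read than the others, at 24462 to 25177 against 20066 to 20682. The 4 also had the higher total counts, at 69366708 to 96237665 reads against 44620965 to 55802651 in the others. The part of total count in the number of genes read was not tested. Across the whole transcriptome the replicate numbers of the 4 libraries ran crosswise. Replicate 2 minus replicate 1 of EHE6 and replicate 2 minus replicate 1 of EHE17 correlated at -0.63 over 18535 genes, which are not independent replicates. EHE6_2 thus departed from its partner in the same direction as EHE17_1. Low counts were more often even than odd: genes at a count of 2 outnumbered genes at a count of 1 by 1.56 to 1.95 times in every library. Single reads are thus not independent, and the counting intervals below, which cover counting error only, are too narrow.

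Kap had the most reads of the 10 genes. Kap (ENSMUSG00000032758, GRCm38 chromosome 6, 133849851 to 133853762) encodes a kidney androgen-regulated protein of the proximal tubule. It stood at 27.6 CPM in EHE6_1, 115 in EHE6_2, 80.5 in EHE17_1 and 22.8 in EHE17_2. In reads this was 2051, 8175, 6478 and 2060, against 0 in each of the other 4 libraries, where 3 reads would have been 0.0552 to 0.0658 CPM. EHE6 replicate 2 and EHE17 replicate 1 were the high libraries, and the lines overlapped, at 71.5 ± 62.0 CPM in EHE6 and 51.6 ± 40.8 CPM in EHE17 (SD, n = 2 each). Replicate 2 of EHE6 exceeded replicate 1 by 2.06 log2 units (95% exact binomial interval 1.99 to 2.13), and replicate 1 of EHE17 exceeded replicate 2 by 1.82 (1.75 to 1.89).

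Acsm2 (chromosome 7, 119554340 to 119600690), an acyl-CoA synthetase of medium-chain fatty acids, was at 7.95, 34.9, 26.3 and 7.11 CPM. Slc34a1 (chromosome 13, 55398187 to 55415592), the sodium phosphate cotransporter of the proximal tubule brush border, had levels of 5.81, 24.7, 19.0 and 4.45 CPM. Slc27a2 (chromosome 2, 126552407 to 126588243), a fatty acid transporter with very long chain acyl-CoA synthetase activity, had levels of 4.84, 20.01, 16.5 and 4.81 CPM. The same libraries were high and low for all of these genes as for Kap. Umod (chromosome 7, 119462711 to 119479282), uromodulin of the thick ascending limb, was at 1.87, 11.3, 9.83 and 2.99 CPM. It was high in the same libraries, but its lowest library was EHE6 replicate 1 rather than EHE17 replicate 2. Over the 5 kidney genes the difference within EHE6 was 2.05 to 2.60 log2 units (median 2.09, a 4.26-fold difference) and that within EHE17 1.72 to 2.09 (median 1.82, 3.53-fold). Slc34a1, Slc27a2 and Umod overlap a gene on the other strand in the annotation, and reads of such partners cannot be told apart where counting does not use strand.

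The 250 bases before the RefSeq start of each gene (GRCm38.p6) were read for the letters of factors known from these tissues, on both strands. A link between such letters and the shared movement of a tissue's genes was not tested. Entries were found for 9 of the 10 members, Ttr being the exception. The letters GTTAAT, part of the site of HNF1, a factor of tubule epithelium, were found in Slc34a1, Umod and 1 of the 2 starts of Acsm2, and in none of the 4 eye genes matched, against 6.43% of 32851 starts of all genes. Kap and Slc27a2 had no match. Their differences within EHE6 were 2.06 and 2.05 log2 units, and that of Slc34a1 was 2.09. The matches in Slc34a1, which lie on opposite strands, and those of Umod and Acsm2 are shown to let the letters be compared. Capitals mark the match, and each line reads 5′ to 3′ on the strand of its gene:
Slc34a1, 89 bases before the start (chr13:55399548-55399575, plus strand): gaagattagcaATTAACtggaaggaatc
Slc34a1, 61 bases before the start (chr13:55399576-55399603, plus strand): ttgggggtaaaGTTAATttaatggggaa
Umod, 202 bases before the start (chr7:119479448-119479475, minus strand): ctgttttgccaGTTAATgtctaactgag
Acsm2, 166 bases before the start (chr7:119554163-119554190, plus strand): ctacatctgtaATTAACaaaaactcaaa

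The eye genes were higher in the same libraries, by much less. Rgr (chromosome 14, 37034909 to 37048964), an opsin of pigment epithelium and Müller cells that binds all-trans retinal, was at 17.8 CPM in EHE6_1, 27.0 in EHE6_2, 19.9 in EHE17_1 and 17.5 in EHE17_2, or 22.4 ± 6.50 CPM in EHE6 and 18.7 ± 1.70 CPM in EHE17 (SD, n = 2 each). Within EHE6 this was 0.60 log2 units (0.50 to 0.70) in favour of replicate 2, and within EHE17 0.19 (0.08 to 0.29) in favour of replicate 1. Rlbp1 (chromosome 7, 79374870 to 79387048), the retinaldehyde-binding protein CRALBP of the visual cycle, was at 5.35, 7.38, 6.15 and 6.17 CPM. Its EHE17 libraries did not differ beyond counting error, with a difference of -0.00339 log2 units (-0.18 to 0.17).

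Ttr (chromosome 18, 20665280 to 20674321), the carrier of thyroxine and of retinol-binding protein, is also made by liver and choroid plexus. Its levels were 16.5, 26.5, 17.2 and 11.4 CPM. Dct (chromosome 14, 118012790 to 118052244), dopachrome tautomerase of the melanin pathway, was at 10.3, 17.9, 10.3 and 6.79 CPM, and an antisense gene overlaps it. Tyrp1 (chromosome 4, 80834123 to 80851719), the related melanin enzyme, was at 9.58, 14.1, 10.6 and 7.93 CPM. EHE6 replicate 2 was the highest library for all 10 genes. The order of the tissue sums (EHE6 replicate 2, EHE17 replicate 1, EHE6 replicate 1, EHE17 replicate 2) was kept by 8 of the 10, the exceptions being Umod and Rlbp1. Over the 5 eye genes the difference was 0.46 to 0.80 log2 units within EHE6 (median 0.60) and -0.00339 to 0.60 within EHE17 (median 0.43). In both lines the highest eye gene lay below the lowest kidney gene.

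**Figure D1:**
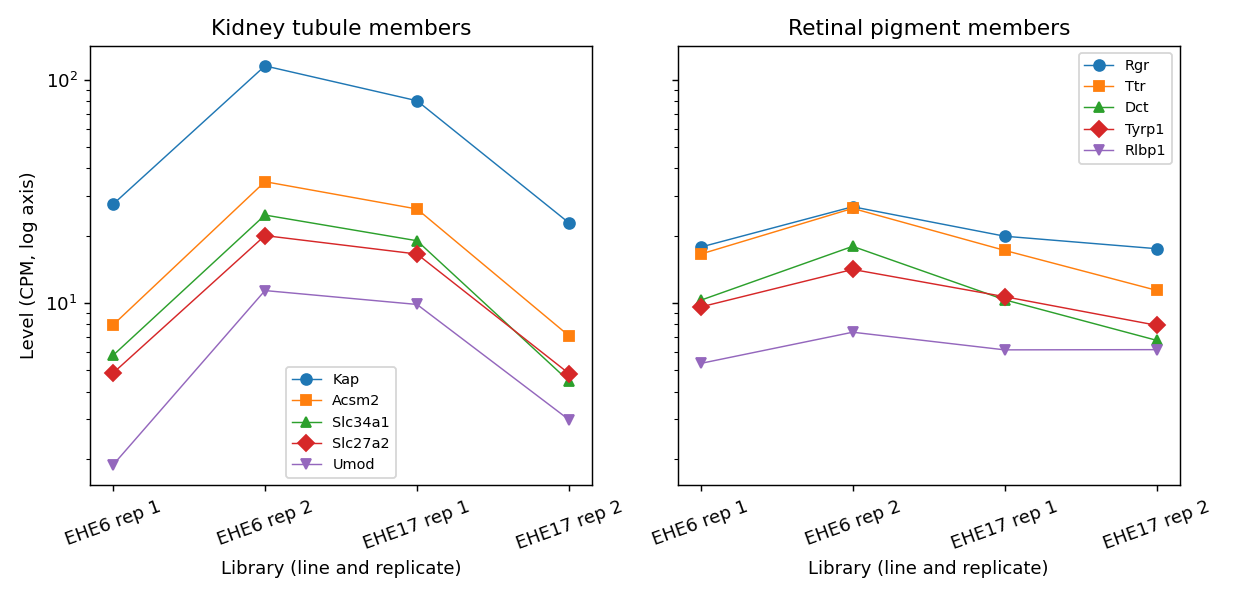
Level of each member in CPM (log axis) in the 4 libraries with member reads, kidney genes on the left and retinal pigment genes on the right; lines only join the values of a gene, and the other 4 libraries had 0 reads for every member. The kidney genes share a steep profile that is high in EHE6 replicate 2 and EHE17 replicate 1, and the eye genes a flatter one.

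The M-box TCATGTG, bound by the pigment cell factor MITF, was found before the starts of both melanin genes, Dct and Tyrp1, and of no other member matched, against 3.25% of all starts. These matches are shown because they part the melanin genes from the visual cycle genes, again with the match in capitals:
Dct, 151 bases before the start (chr14:118052380-118052408, minus strand): tgcacttagggTCATGTGctaacaaagag
Dct, 232 bases before the start (chr14:118052461-118052489, minus strand): cttggctgggaCACATGAgcccaataaag
Tyrp1, 47 bases before the start (chr4:80834155-80834183, plus strand): tggggagggagTCATGTGctgcctagtag
GGATTA, the letters of OTX factors, was found in Rgr and Dct, against 6.25% of all starts. The stretches searched for Kap, Slc34a1, Slc27a2, Umod, Tyrp1, Rlbp1 and the second start of Acsm2 overlap the GENCODE span of the same gene, which begins further upstream. A match describes the letters and shows no binding.

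In sums, the kidney genes were at 48.1 CPM in EHE6_1, 206 in EHE6_2, 152 in EHE17_1 and 42.2 in EHE17_2. The eye genes summed to 59.5, 92.9, 64.2 and 49.7 CPM. The kidney sum changed 4.29-fold (4.14 to 4.45) between the EHE6 replicates, and the eye sum 1.56-fold (1.502 to 1.62). Between the EHE17 replicates the kidney sum changed 3.61-fold (3.48 to 3.74) and the eye sum 1.29-fold (1.24 to 1.34). The 2 tissues therefore moved in the same direction and by different factors in each line. No p-value is given for this, since the members were chosen with their reads known. In bulk RNA, fewer cells of a type and less RNA per cell cannot be told apart, and the same holds for different amounts of a tissue's RNA. The kidney genes made up 44.7% of the member reads in EHE6 replicate 1 (95% Wilson interval 43.6% to 45.8%) and 69.0% in replicate 2 (68.3% to 69.6%). In EHE17 they made up 70.3% in replicate 1 (69.7% to 71.0%) and 45.9% in replicate 2 (44.8% to 47.0%). The intervals of EHE6_1 and EHE17_2 overlapped, and those of the other 2 libraries lay far above them.

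The log2 ratio of the kidney sum to the eye sum was -0.31, 1.15, 1.25 and -0.24. By line this was 0.42 ± 1.03 in EHE6 and 0.50 ± 1.05 in EHE17 (SD, n = 2 each), so the lines did not differ beyond the spread of their replicates. An exact permutation test of 2 libraries against 2 cannot give a two-sided p below 0.333, and none was run. The swing of the ratio was 1.46 log2 units within EHE6 and 1.48 within EHE17. It was 1.49 and 1.43 without Kap and Rgr, the most abundant gene of each tissue, and 1.47 and 1.56 without Ttr. When all genes of the proximal tubule, pigment epithelium and melanin lists were added the swing was 0.04 and 0.27. In those sums the proximal tubule gene Cyp4b1, read in all 8 libraries, had 17705, 15859, 16491 and 18236 reads in the 4 libraries and 81 to 8038 in the others. With only the non-member list genes that were read in the 4 libraries alone, an alternative chosen after seeing the data, the swing was 1.18 in EHE6 and 1.28 in EHE17.

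Within each tissue the genes kept close, but not fixed, proportions. Kap made up 57.5%, 55.9%, 52.9% and 54.1% of the kidney reads. Acsm2 made up 16.5%, 16.9%, 17.3% and 16.9%, with Wilson intervals that overlapped in all 4 libraries. Umod, the kidney gene that is not of the proximal tubule, went from 3.89% (3.31% to 4.58%) in EHE6 replicate 1 to 7.09% (6.32% to 7.95%) in EHE17 replicate 2, with 5.50% and 6.46% in the other 2 libraries. Among the eye reads EHE17 replicate 2 stood apart. Rgr made up 35.2% there (33.8% to 36.6%) against 29.0% to 31.0% in the other 3 libraries, and Rlbp1 12.4% (11.5% to 13.4%) against 7.95% to 9.59%. Ttr made up 22.9% there (21.7% to 24.1%) against 26.8% to 28.5%, and Dct 13.6% (12.7% to 14.7%) against 16.1% to 19.3%. The intervals of that library lay apart from the other 3 for these genes, narrowly so for Dct, and they are too narrow as said above. A larger share was not a higher level for Rgr, which had its lowest CPM in that library. Rlbp1 was at 6.17 CPM there, within the 5.35 to 7.38 CPM of the other 3 libraries. The melanin gene Tyrp1 made up 15.2% to 16.6% in all 4.

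**Figure D2:**
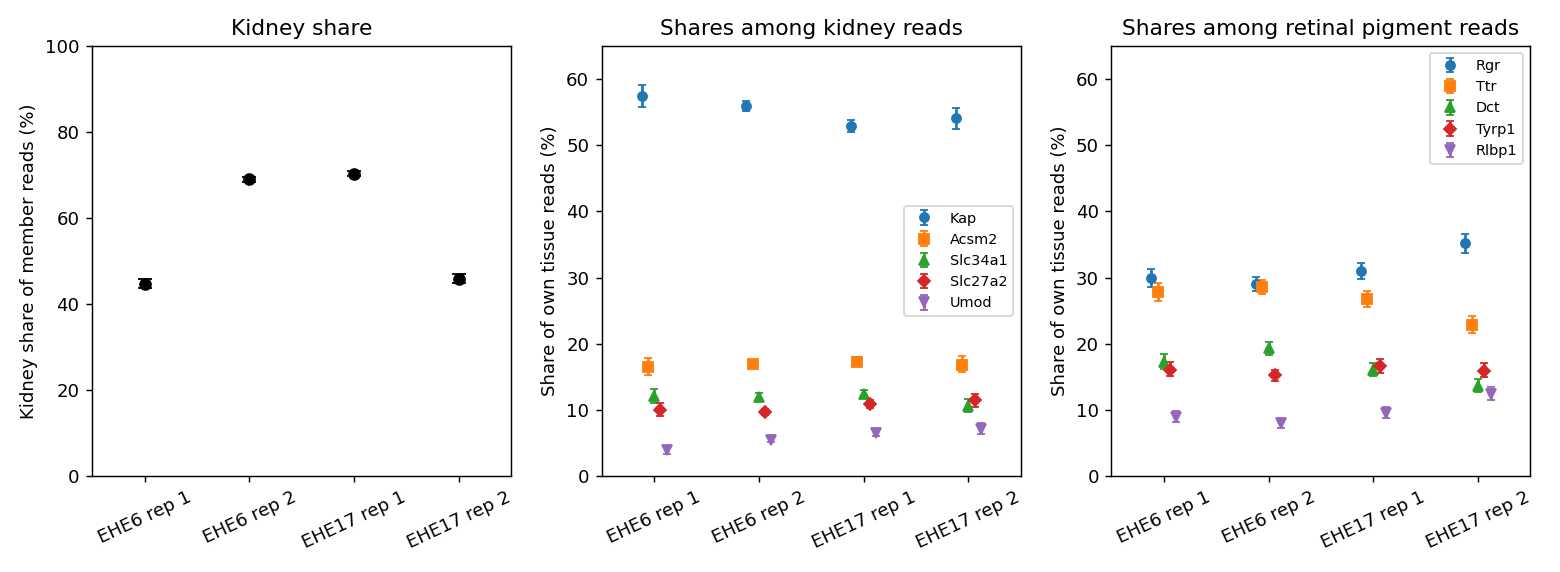
Shares of reads in the 4 libraries, with 95% Wilson intervals that cover counting error only: the kidney share of all member reads (left), and the share of each member in the reads of its own tissue (middle and right). The kidney share is 44.7% in EHE6_1 and 45.9% in EHE17_2, against 69.0% and 70.3% in the other 2 libraries, while shares within a tissue move by a few points.

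Per kilobase of exon, Kap was the most abundant member, with a mean of 87.1 CPM per kb over the 4 libraries (32.3 to 163). Ttr followed at 15.1 (9.58 to 22.3) and Rgr at 4.29 (3.65 to 5.63). The ranges of these first 2 genes overlapped with no other. The remaining 7 genes had means of 1.92 to 3.74 CPM per kb, and each overlapped with its neighbours in the order, although Tyrp1 (2.80 to 4.99) lay above Rlbp1 (1.81 to 2.498). Kap and Ttr also have the shortest exonic lengths of the 10.

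The contrast of EHE17 with EHE6 was fitted next. The choice of genes required reads in replicates 1 and 2 and none in replicate 3 of both lines. With all 8 libraries in the edgeR quasi-likelihood fit, 0 of the 10 genes were called (adjusted p under 0.05 and a log2 fold change of at least 1), where 0.143% of 18882 tested genes were (0.0794% higher and 0.0636% lower in EHE17). All 10 passed the filter on low counts, through the libraries in which they had reads. The choice thus gave each line the same layout in this fit (standard errors 2.002 to 2.28), and its count of 0 is read as no result about the members. How the levels in replicates 1 and 2 differed between the lines was not part of the choice. Among replicates 1 and 2 alone 0 of 10 were called, where 0.523% of 18535 genes were, or 97 genes. With the replicate number as a block 331 genes were called there, and again 0 of the members, although the whole transcriptome paired these libraries crosswise. In both fits 0 members had an unadjusted p under 0.05 and DESeq2 called 0. In the fit of the 4 libraries Dct had the largest log2 fold change, -0.71 ± 0.39 (SE, adjusted p = 0.656, edgeR), and Ttr followed with -0.58 ± 0.36 (adjusted p = 0.719, edgeR). Kap was at -0.46 ± 0.79 (adjusted p = 0.954, edgeR). The standard errors of the kidney genes were 0.79 to 0.89 and those of the eye genes 0.31 to 0.39.

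The median log2 fold change in the 4 libraries was -0.35 for the kidney genes and -0.34 for the eye genes, against 0.01 for all genes tested. The kidney median depended on single libraries. It was 1.06 without EHE6 replicate 2 and -1.55 without EHE17 replicate 1, the libraries with the most kidney reads, and -1.04 and 0.32 without EHE6 replicate 1 and EHE17 replicate 2. The eye median stayed between -0.58 and -0.05 in the same 4 fits.

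Reads confined to the 4 libraries were found for other genes as well. At least 10 reads in each of the 4 libraries and at most 2 in each other library were counted for 609 of 16450 genes with the reads in the 4 (3.7%), the 10 members among them. These 609 genes held 0.0788%, 0.122%, 0.0956% and 0.0591% of all counts in the 4 libraries. The kidney members alone held 0.00396% to 0.0211%, and the eye members 0.00467% to 0.00949%. The rise of at least 2-fold in both EHE6 replicate 2 and EHE17 replicate 1, which all 5 kidney genes and none of the eye genes showed, was seen in 96 of the 609 (15.8%). It was seen in 626 of the other 15841 genes (3.95%). A difference under 2-fold in both lines, as in all 5 eye genes, was seen in 334 of the 609 (54.8%) and 78.4% of the others. The 2 differences correlated at 0.63 (Spearman 0.56) over the 609 genes and at 0.66 (Spearman 0.65) over the others. The 2 differences come from separate libraries, and genes are not independent replicates. The part of the shift of the whole transcriptome in the shift of the members was not tested.

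**Figure D3:**
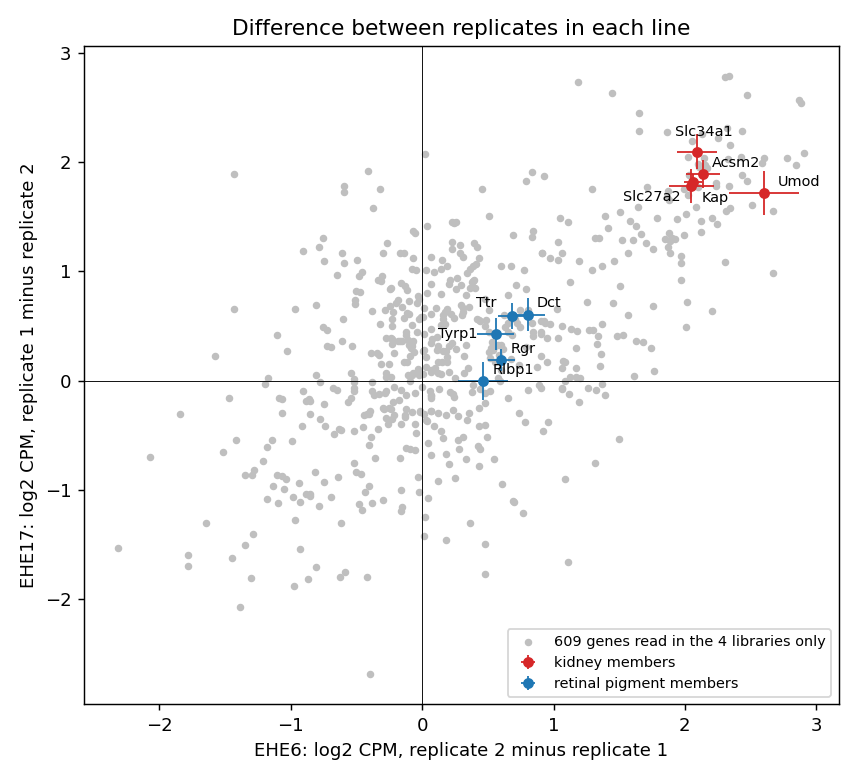
Log2 difference in CPM between replicates of EHE6 (horizontal) and EHE17 (vertical) for the 609 genes read in the 4 libraries only (grey), the kidney members (red) and the retinal pigment members (blue), with 95% exact binomial intervals. The kidney members lie at 1.72 or above on both axes and the retinal pigment members at 0.80 or below.

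The genes most like each tissue were sought by comparing how their CPM was spread over the 8 libraries. The distance used is 0 for identical shares and 1 for shares with no library in common, and 17161 genes with at least 100 reads were compared. The kidney and eye sums themselves lay 0.209 apart. Among the nearest to the kidney sum were the gluconeogenic enzyme Fbp1 (0.00808), the amino acid transporter Slc6a18 (0.00875), the brush border protease Mep1a (0.0141), Ugt3a2 (0.0141) and Serpinf2 (0.0170). Their distances to the eye sum were 0.203 to 0.220. Nearest to the eye sum were Cend1 (0.0142), Cmtm5 (0.0144), Pcnx2 (0.0149), the glutamate transporter Slc1a1 (0.0232), Dgkg (0.0284) and Tspoap1 (0.0300). Fbp1 had 107, 428, 367 and 120 reads and none elsewhere. Cend1 had 118, 171, 142 and 127 reads and none elsewhere. None of the genes named here as nearest was on the kidney, pigment epithelium or melanin lists. A flat profile was not particular to eye genes. Snap25 of the brain list differed by 0.23 log2 units within EHE6 and 0.62 within EHE17.

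Other genes of the kidney were examined by list. Of 16 further proximal tubule genes, 6 were read in the 4 libraries only (Slc22a6, Slc22a8, Slc5a12, Slc7a13, Miox and Keg1), 9 had reads elsewhere too, and 1 had fewer than 10 reads in some of the 4. The 6 had a median difference of 2.11 log2 units within EHE6 and 1.62 within EHE17. The endocytic receptor Lrp2 had 215, 845, 830 and 322 reads in the 4 libraries and 0 to 6 in each other library. Cubn and Gatm, like Cyp4b1, had reads in every library, and the sum of the list was 224 to 299.9 CPM in the 4 libraries and 18.2 to 169 in the others. Most of the sum in the 4 was Cyp4b1, at 202 to 238 CPM, against 1.70 to 161 in the others. Gatm was at 3.91 to 9.27 CPM in the 4 libraries and higher in EHE26, at 48.6 and 91.3. Of 17 genes of the loop, distal tubule and collecting duct, 4 were read in the 4 libraries only (Kcnj1, Pvalb, Calb1 and Aqp2). Slc12a1, the thick limb cotransporter, had 55, 291, 331 and 114 reads there and 0 to 11 elsewhere, and Egf had 115, 462, 474 and 209 against 14 to 22. Pvalb, with 395, 422, 368 and 343 reads, did not follow them. Calb1, with 409, 409, 438 and 225, followed within EHE17 only (1.13 log2 units). Aqp2, with 19, 56, 40 and 35, followed mainly within EHE6 (1.63 log2 units, and 0.36 within EHE17). Neurons also make Pvalb and Calb1, and the source of these reads was not tested. The list summed to 11.99 to 30.2 CPM in the 4 libraries and 1.37 to 2.35 in the others.

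The 4 podocyte genes of the list were near 0 throughout, at a sum of 0.18 to 0.48 CPM in the 4 libraries and 0.06 to 0.38 in the others. Mouse kidney differs between the sexes, and Kap is among the genes driven by androgen. Of 5 genes known to be higher in male kidney, 3 were read in the 4 libraries only. Slco1a1 had 68, 473, 360 and 68 reads, Cyp2j13 35, 159, 158 and 38, and Slc7a13 75, 339, 299 and 124, all with none elsewhere. Acsm3 had 36, 300, 208 and 31 reads and 12 to 35 in each other library. Cyp7b1 did not follow, with 18, 50, 48 and 39 reads in the 4 libraries and 2 to 218 in the others. The sum of the list overlapped, at 3.12 to 18.6 CPM in the 4 libraries and 0.28 to 4.30 in the others. The female-biased Slc7a12 and Cyp4a14 had at most 2 and at most 6 reads in any library.

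Among 9 further genes of the pigment epithelium, Rpe65, the isomerase of the visual cycle, was the only one read in the 4 libraries alone, with 272, 545, 318 and 315 reads. The other 8 also had reads elsewhere. Lrat had 199, 351, 259 and 270 reads against 0 to 12, Rdh5 233, 290, 290 and 284 against 25 to 55, and Slc16a8 195, 226, 211 and 198 against 0 to 10. The list summed to 17.0 to 27.5 CPM in the 4 libraries and 1.05 to 1.80 in the others. Of 11 melanin genes, 3 were read in the 4 libraries only (Slc45a2, Oca2 and Trpm1), with median differences of 0.72 log2 units within EHE6 and 0.72 within EHE17. Pmel, the fibril protein of melanosomes, had 404, 758, 500 and 451 reads against 33 to 74, and Mlana had 112, 201, 215 and 151 against 0 to 6. Mitf and Slc24a5 had reads in every library, and the melanin list summed to 17.6 to 30.3 CPM against 8.92 to 18.4.

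Photoreceptor genes were examined next. Gnat1, the rod transducin, had 116, 86, 158 and 59 reads, with 2 to 7 in each other library. Replicate 1 was the higher library for Gnat1 in both lines, whereas replicate 2 of EHE6 was the higher for every member. Rom1 and Gnat2 had reads in every library, and the list of 20 summed to 7.60 to 14.2 CPM against 2.63 to 5.04. The inner retina list of 9 genes summed to 1.09 to 2.68 CPM in the 4 libraries and 2.56 to 20.7 in the others. The lens list, with Cryaa, Cryba1, Crybb2 and Bfsp1 as its most abundant genes, summed to 0.85 to 1.21 CPM against 0.06 to 0.24.

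Markers of further tissues that share genes with the members were set beside them. Liver genes summed to 0.29 to 0.79 CPM in the 4 libraries and 0.12 to 1.34 in the others. Apob and Apoh had the highest means in the 4, and 3 of 13 genes were at 0 in every library. Ttr, which is not on that list, was at 11.4 to 26.5 CPM in the 4. The source of the Ttr reads was not tested. Choroid plexus genes summed to 10.6 to 39.4 CPM in the 4 libraries and 0.75 to 26.2 in the others. In EHE6_1 and EHE6_2 most of that was Clic6, with 2168, 2125, 184 and 266 reads. The 26.2 CPM was F5 in EHE6 replicate 3. Of the 7 choroid plexus genes, 4 (Clic6, Sostdc1, Folr1 and Kcnj13) were read in the 4 libraries only, at a sum of 4.29 to 33.2 CPM. Clic6 was the only gene of the 22 lists called by edgeR between the lines in the 4 libraries (-3.49 ± 0.31, adjusted p = 0.0169, edgeR), and it was higher in EHE6. Red blood cell genes summed to 5.82 to 11.1 CPM in the 4 libraries and 0.06 to 0.18 in the others, with Hba-a1 at 277, 309, 540 and 251 reads. Hba-a1 has a near-identical copy, so its reads are uncertain. Brain genes summed to 56.4 to 107 CPM against 12.3 to 54.3, and Snap25 had 1073, 1205, 1189 and 869 reads against 0 to 4. Skin genes summed to 6.46 to 9.05 CPM against 2.45 to 5.04, and muscle genes to 8.35 to 20.1 against 1.12 to 191. The 191 CPM was Tnnt2 in EHE26 replicate 2, whereas 5 of the 11 muscle genes (Ckm, Acta1, Myh4, Myl1 and Myh2) were read in the 4 libraries only, at a sum of 4.598 to 10.8 CPM. Lung (0.86 to 4.01 against 0.70 to 1.34 CPM), gut and pancreas (4.45 to 7.39 against 0.55 to 5.48) and leukocyte genes (17.9 to 27.2 against 22.2 to 39.5) overlapped between the 4 libraries and the others. The steep profile of the kidney genes was also seen outside the kidney lists. Ager of the lung list had 57, 277, 234 and 83 reads, against 30 to 57 elsewhere. Gfap of the brain list had 149, 624, 609 and 219, against 3 to 10. No other gene of the brain list rose at least 2-fold in both lines. Adipocyte and testis genes stayed at or below 0.31 CPM everywhere. The red blood cell, brain and skin sums were higher in the same 4 libraries as the members. For the 4 choroid plexus genes and these 5 muscle genes this follows from how they were picked. The full choroid plexus and muscle lists overlapped between the 4 libraries and the others. The part of all these genes in the results above was not tested.

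Over the 10 kidney and eye lists, 0 of 69 tested genes were called between EHE17 and EHE6 in the 4 libraries and 0 of 68 with all libraries, by edgeR. The melanocortin receptor gene Mc1r had an unadjusted p under 0.05 with all libraries, the only one of the 68, and was the only one called by DESeq2 there. In the 4 libraries 1 gene had an unadjusted p under 0.05 (Slc24a5), and DESeq2 called 0. Of all genes tested, 1302 of 18882 had an unadjusted p under 0.05 with all libraries and 2013 of 18535 in the 4 libraries, and 0.143% and 0.523% were called. The median log2 fold change of the lists was -0.25 in the 4 libraries.

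**Figure D4:**
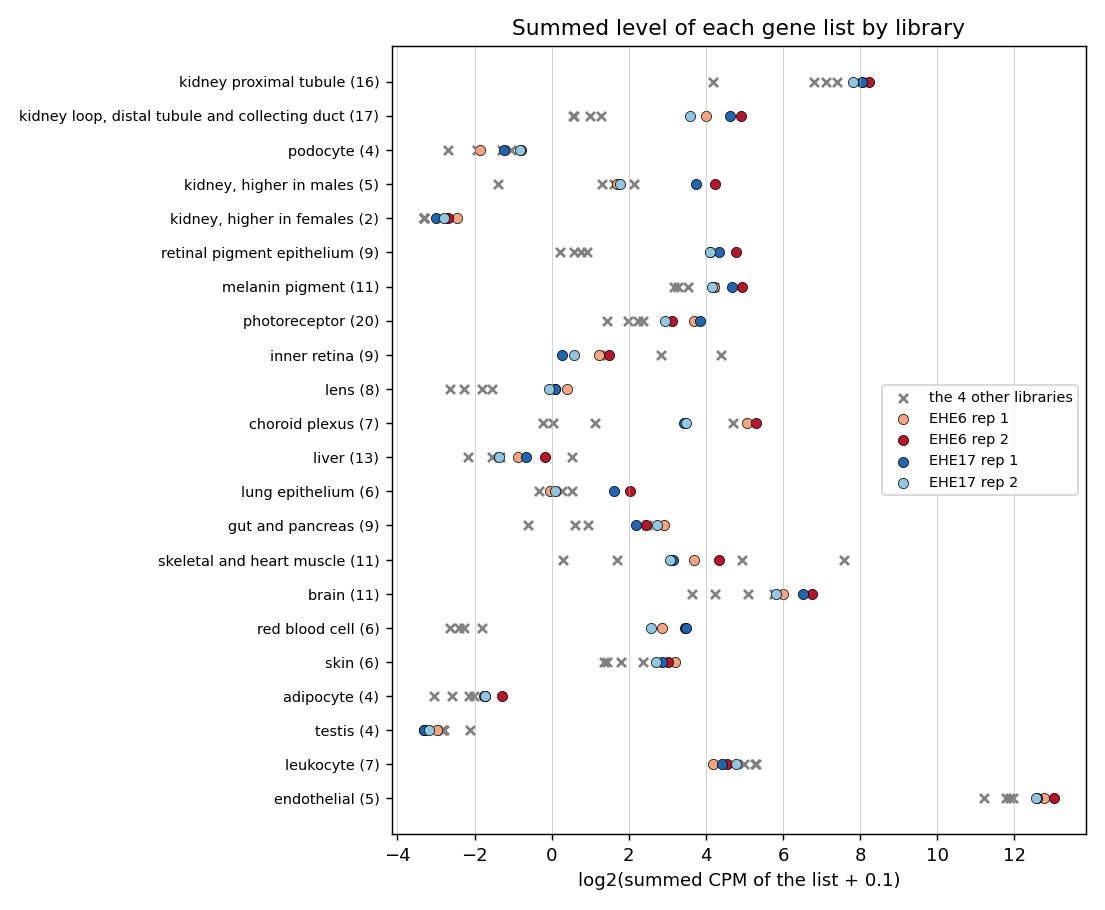
Summed level of each of 22 gene lists in each library, as log2 of the summed CPM plus 0.1, with the number of genes in brackets; circles are the 4 libraries with member reads and crosses the other 4. Pigment epithelium, loop and distal tubule, lens and red blood cell genes are among those higher in all 4 circles than in any cross, whereas podocyte, liver and leukocyte genes overlap.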

How the data were processed

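Each library is a polyA-selected RNA sample of a mouse cell line prepared with the NEBNext Ultra II kit, per the labels' protocols. HISAT2 and the mouse build mm10 are named per the submitters' processing notes, and the version, counting tool, annotation and strand setting are not given in the sources used here. The authors deposited whole-number counts for each Ensembl gene, not normalized, and the file of each sample equals its column in the series table (8 of 8). GENCODE release M21 (GRCm38) gave symbols and spans for 55141 of 55401 identifiers, and the rest held at most 0.0181% of a library's counts. Promoter windows came from RefSeq (GRCm38.p6).

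The members and gene lists were chosen with earlier results of these data known. Counts were scaled with TMM, filtered with filterByExpr and fitted by edgeR 4.0.16 (quasi-likelihood, R 4.3.3) with line as the only term, once on all 8 libraries and once on replicates 1 and 2 of EHE6 and EHE17. P-values were adjusted by the Benjamini-Hochberg method over all genes tested. The alternatives were DESeq2 1.42.0, library totals without TMM, no filter, the replicate block and leaving out each library. On simulated data the fit of all libraries recovered 0%, 18%, 52% and 68% of log2 changes of 1, 2, 4 and 6, and the fit of 4 libraries 4%, 40%, 80% and 94%. Named genes are the members, up to 4 most abundant genes of each kidney or eye list and up to 2 of each other list, and the 6 genes nearest to each tissue; further genes of a list were named after their values were seen, and some genes that the rule names are not reported here.

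Departures of same-numbered libraries of EHE6 and EHE17 from the mean of their line had correlations of 0.13 (replicate 1), 0.18 (replicate 2) and 0.57 (replicate 3). All exceed 0.1, so results are also given with the replicate block, but the crossed pairs correlated more (0.54 for EHE6_1 with EHE17_2, 0.62 for EHE6_2 with EHE17_1). The line means include replicate 3. Among the 4 libraries alone, replicate 2 minus replicate 1 correlated at -0.63 between the lines. The values 0.13 and 0.18 are therefore not read as a pairing. The labels state no pairing.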

Additional observations from a re-analysis of the deposited data

How the results depend on the processing

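No member was called between EHE17 and EHE6 in any of the fits that held the members, a count that the choice of members bears on when all libraries are fitted. Genes called with all libraries numbered 27 (15 higher and 12 lower in EHE17), and 392 with DESeq2, 142 without the filter, 7 with only the EHE6 and EHE17 libraries, 33 (22 higher and 11 lower) with the replicate block, and 1 to 54 when a library was left out. Among replicates 1 and 2 they numbered 97, and 882 with DESeq2, 61 without TMM factors, 898 without the filter, 331 with the replicate block, and 217 to 521 when a library was left out, where the lone library of a line is assumed to vary like the others. The crossed pairing of these libraries, chosen after seeing the data, called 1689 and 0 members, of which 2 had an unadjusted p under 0.05. The replicate block changed no call of a member. The median of the kidney members ran from -2.01 to 1.49 with all libraries and from -1.55 to 1.06 among replicates 1 and 2 when a library was left out, and that of the eye members from -0.9998 to 0.37 and from -0.58 to -0.05.

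The log2 kidney to eye ratio per kilobase of exon was 0.82, 2.25, 2.30 and 0.92 in EHE6 replicates 1 and 2 and EHE17 replicates 1 and 2, a scale that weights the short Kap transcript more, and with all list genes added it was 1.71 and 1.65 in EHE6 replicate 1 and EHE17 replicate 2. Genes read in the 4 libraries only numbered 1108 at 3 reads or more and 360 with 0 reads elsewhere. The cause of the other changes was not tested.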

Other observations

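Some genes read in the 4 libraries only ran opposite to the kidney genes. Of the 609, 11 (1.81%) were at least 2-fold lower in both EHE6 replicate 2 and EHE17 replicate 1. Among the other 15841 genes with the reads in the 4 libraries 204 were (1.29%), a share not far below. The genes named here were chosen after their values were seen. Mycl, a MYC family factor, had 2637, 991, 1127 and 3578 reads in EHE6_1, EHE6_2, EHE17_1 and EHE17_2. Calca, the calcitonin gene, had 291, 89, 103 and 285, and the Notch ligand gene Dll3 57, 22, 12 and 47. The milk protein gene Lalba had 265, 97, 109 and 513.

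Others were nearly level over the 4 libraries. Myoc, known from the outflow tissue of the eye, had 393, 357, 393 and 421 reads, and the matrix gene Fmod 338, 306, 290 and 313, with none elsewhere. A further kind split by line: Mogat2, an acyltransferase of fat absorption, had 2604 and 1900 reads in EHE6 and 175 and 280 in EHE17.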
